A study of Rattus norvegicus with 48 samples.

Results

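The miR-17 to miR-92a cluster is a group of small RNAs that are cut from a single primary transcript. It was followed here through 9 mature products (rno-miR-17-5p, rno-miR-17-1-3p, rno-miR-18a-5p, rno-miR-19a-3p, rno-miR-19a-5p, rno-miR-20a-5p, rno-miR-19b-3p, rno-miR-92a-3p and rno-miR-92a-1-5p, written below without the rat prefix) in the liver of male Sprague-Dawley rats given thioacetamide (TAA), a compound that injures the liver and causes liver tumours in rodents. The members were taken by name from the deposited raw read counts, which list 764 mature rat miRNAs, 664 of them with a read. When a mature sequence was listed under several precursors, the row with the most reads was kept. Rats received TAA once a day at 4.5 mg/kg (low dose), 15 mg/kg (middle dose) or 45 mg/kg (high dose) over 3, 7, 14 or 28 days (written 3-d and so on), and the controls of each time point received vehicle alone. Each of the 16 groups holds 3 rats, the ages are not given in the sources used here, and each library was made from total liver RNA. All groups share strain, sex and tissue, and no group carries a transgene or deletion.

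A miRNA is cut from a hairpin, loaded into an Argonaute protein, and pairs with messenger RNAs mainly through its seed, which is bases 2 to 8. One strand of the hairpin is usually kept as the guide and the other is mostly degraded. The cluster is known for promoting cell division and survival, is a target of MYC and E2F factors, and is often amplified or raised in tumours, liver tumours among them. Close copies of it exist at a pair of other loci, the miR-106a to miR-363 cluster on the X chromosome and the miR-106b to miR-25 cluster.

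In the RefSeq annotation of the GRCr8 rat assembly the 6 hairpins lie on the plus strand of chromosome 15, at chr15:98587848-98588632, in the order Mir17, Mir18a, Mir19a, Mir20a, Mir19b1 and Mir92a1, within 785 bases. The counts themselves carry no coordinates. All 9 members were matched by name to RefSeq mature sequences, which are shown so that members with a common seed can be seen. The seed is in capitals.

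miR-17-5p: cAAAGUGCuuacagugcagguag
miR-20a-5p: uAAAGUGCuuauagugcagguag
miR-18a-5p: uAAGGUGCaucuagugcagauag
miR-19a-3p: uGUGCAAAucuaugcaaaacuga
miR-19b-3p: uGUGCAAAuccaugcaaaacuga
miR-92a-3p: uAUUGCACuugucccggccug
miR-17-1-3p: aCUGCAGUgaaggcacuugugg
miR-19a-5p: uCGUUUUGcauaguugcacu
miR-92a-1-5p: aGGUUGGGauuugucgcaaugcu

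The first 6 are the guide strands and the last 3 are the partner strands of the hairpins of miR-17, miR-19a and miR-92a. miR-17-5p and miR-20a-5p share their seed and 21 of 23 bases, with the changes C1U and C12U counted from the 5′ end and written miR-17-5p first. The seed of miR-18a-5p differs from theirs by A4G. miR-19a-3p and miR-19b-3p share 22 of 23 bases and differ by U11C, so that reads with an error at this base could be given to the wrong member. miR-17-5p, miR-19b-3p and miR-92a-3p are also listed under a precursor of the X chromosome copy, and reads that match both precursors cannot be split between the loci. The mir-17-2 row held 64.2% as many reads as the kept row of miR-17-5p, and the mir-92a-2 row 4.29% as many as that of miR-92a-3p. The miR-19b-3p row that was kept is the one of the X chromosome copy, mir-19b-2, and the mir-19b-1 row held 97.7% as many reads.

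Levels are given as RPM, reads scaled to a common library size, after upper quartile normalization (normalized RPM). Library totals were between 4829217 and 14906217 reads in 47 libraries. The library of control 3-d replicate 1 had 293331 reads, so that 3 reads, the limit that a count of 0 allows for counting error alone, were 10.2 RPM there and 0.325 RPM in control 3-d replicate 2. That library also stood apart in content. miR-92a-3p took 9.84% of its reads, at 98428 RPM against a median of 15077 RPM and a maximum of 25640 RPM in the other 47 libraries. Its miR-17-5p count was 21, its miR-19a-3p count was 4 and its miR-19a-5p count was 0. Values that use the 3-d controls include this library unless stated otherwise, and main results are therefore also given without it. The tissue label was checked with marker miRNAs: the hepatocyte miR-122-5p had a median of 34939 RPM, whereas brain miR-124-3p and heart miR-208a-3p had medians of 0. The list of other tissues also held miR-208b-3p, with a median of 0, and miR-9a-5p, which was present at a median of 5.29 RPM.

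All 9 members were among the 301 miRNAs that passed the filter (5 RPM or more in 3 or more of the 48 libraries), but miR-19a-5p reached 5 RPM in 11 libraries only. Its highest values in the controls were 3.23, 2.40, 4.12 and 6.40 normalized RPM from 3-d to 28-d. In the high-dose rats of 3-d and 7-d they were 9.52 and 8.59. miR-19a-5p thus passed the filter mainly through treated rats, and its higher values after TAA are not independent of the filter. The members differed widely in abundance. miR-92a-3p held a median of 94.2% of the reads of the cluster over the 47 libraries and ranked 15 among the 664 miRNAs by mean RPM. miR-19b-3p followed with 2.68%, miR-20a-5p with 1.34%, miR-17-5p with 0.896% and miR-19a-3p with 0.418%. The partner strands miR-92a-1-5p, miR-17-1-3p and miR-19a-5p held 0.320%, 0.0585% and 0.0242%, and miR-18a-5p held 0.0804%. These are shares of reads, and the capture of different small RNAs in a library is known to be uneven. Within their seed families, miR-19a-3p and miR-19b-3p were the only listed miRNAs with the seed GUGCAAA. miR-17-5p and miR-20a-5p supplied a median of 39.2% of the reads with the seed AAAGUGC, shared with miR-93-5p, miR-106b-5p and miR-20b-5p. miR-92a-3p supplied 90.6% of those with the seed AUUGCAC.

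A differentially expressed miRNA (DEM) had an unadjusted p below 0.05 and a fold change above 1.5 in edgeR's quasi-likelihood F-test of 3 treated rats against the 3 controls of the same time point. Over the 12 conditions the 9 members made 11 calls of a higher and 6 of a lower level, and 5 of the higher and 4 of the lower calls also had an adjusted p below 0.05. Among all 301 miRNAs, 12.1% of the tests over the 12 conditions were called higher and 5.98% lower, so that neither number of calls is a result about the cluster. By member and dose, the miR-19 guide strands fell at the low dose, the calls of higher levels lay at the middle and high doses, in miR-18a-5p, the 3 partner strands and once in miR-19a-3p, and miR-17-5p and miR-20a-5p passed both thresholds in 0 of 12 conditions, while the unadjusted p of miR-17-5p was below 0.05 in 3 of them and that of miR-20a-5p in 2. No member was called at the low dose of 28-d, where 12.3% of all miRNAs were called in either direction, or at the middle dose of 3-d, where 2.99% were. Less RNA per cell and fewer cells that contain a miRNA cannot be told apart in these bulk samples.

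**Figure D1:**
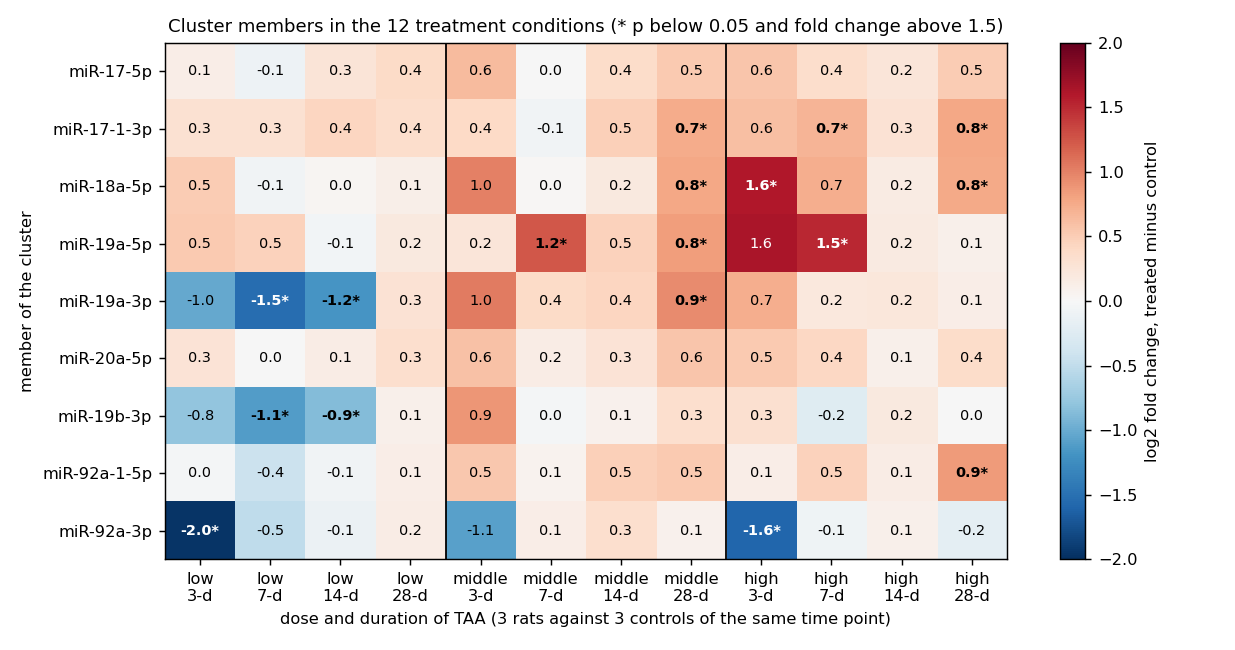
Log2 fold change (treated minus control of the same time point) of each of the 9 members in the 12 conditions, with dose and time on the x axis and an asterisk where p was below 0.05 and the fold change above 1.5. The 4 lower calls of miR-19a-3p and miR-19b-3p lie at the low dose, and those of miR-92a-3p at the low and high dose of 3-d, of which the high-dose call was lost without control 3-d replicate 1.

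The miR-19 guide strands, of which miR-19b is regarded as the main oncogenic part of the cluster in lymphoma models, were lower at the low dose of 7-d and 14-d. miR-19a-3p was at 61.3, 66.5 and 78.2 normalized RPM in the 7-d controls and at 21.3, 27.9 and 21.9 in the low-dose rats. At 14-d the controls were at 98.4, 42.7 and 55.02 and the low-dose rats at 21.2, 32.9 and 31.8. The groups did not overlap at either time. The log2 fold change was -1.53 (SE 0.16, adjusted p = 0.000211 over 301 miRNAs) at 7-d and -1.19 (SE 0.30, adjusted p = 0.00854) at 14-d.

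miR-19b-3p moved in the same way at a higher level, with 226604 reads over the 48 libraries against 35872 for miR-19a-3p. It was at 447, 552 and 553 normalized RPM in the 7-d controls and at 202, 301 and 209 in the low-dose rats. At 14-d it was at 694, 298 and 431 in the controls and at 244, 270 and 263 at the low dose. Again the groups did not overlap, although the lowest control of 14-d, at 298, lay close to the highest treated rat, at 270. The log2 fold change was -1.12 (SE 0.17, adjusted p = 0.00119) at 7-d and -0.87 (SE 0.25, adjusted p = 0.0176) at 14-d, and without control 14-d replicate 13 the latter became -0.49 and was no longer called. With the 12 controls of all time points pooled it was -0.80 and was not called either. These 2 members were the only ones called at the low dose at 7-d, where 10.6% of the 301 miRNAs were called lower and 26.9% were called in either direction with an adjusted p below 0.05, and at 14-d, where these shares were 9.63% and 30.2%.

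At 3-d the comparison turned on the library that stands apart. miR-19a-3p was at 25.1, 25.4 and 28.2 normalized RPM in the low-dose rats, at 58.2 and 81.7 in control replicates 2 and 3, and at 11.3 in control replicate 1. With all 3 controls its log2 fold change was -1.03 and was not called, and that of miR-19b-3p was -0.78 and was not called either. Without control replicate 1 they were -1.41 (SE 0.18, adjusted p = 0.00763) and -1.25 (SE 0.11, adjusted p = 0.00184), and both were called, against 10.3% of the 301 miRNAs called lower in that fit.

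The 9 low-dose libraries of the first 3 time points held miR-19a-3p at 21.2 to 32.9 normalized RPM, below each of the 11 deeper controls (42.7 to 98.4) and each of the 24 libraries of the middle and high dose (40.4 to 194). For miR-19b-3p they held 202 to 301, against 298 to 694 in the same controls and 270 to 1172 at the middle and high dose, so that the ranges met at their ends. The low-dose rats of 28-d did not share this level. Their miR-19a-3p was at 90.1, 36.5 and 80.2 and their miR-19b-3p at 548, 293 and 510, and the log2 fold changes were 0.28 (SE 0.32) and 0.11 (SE 0.27). The change of the effect of the low dose from 7-d to 28-d was 1.82 (SE 0.64, 95% interval 0.57 to 3.06) for miR-19a-3p, which did not pass the adjustment over 301 miRNAs (adjusted p = 0.235). The low-dose libraries of the first 3 time points bear the running numbers 40 to 48, the last 9 of the 48, and those of 28-d the numbers 28 to 30. The same 9 libraries held a higher sum of the 4 hepatocyte markers, at 290107 to 382506 normalized RPM. In the controls of these time points it was 103835 to 277207, with the lowest value in control 3-d replicate 1, and at the low dose of 28-d 215238 to 352118. This sum mostly reflects miR-192-5p, with a median of 209194 RPM against 34939 for miR-122-5p, 7315 for miR-194-5p and 1352 for miR-122-3p. Of the 4 markers, 0 were called higher at 3-d, 1 at 7-d and 1 at 14-d, and 1 was called lower at 14-d. The sum of the 5 stellate or smooth muscle markers was also higher at 3-d (49507 to 52864 against 19385 to 47838) and 14-d (49240 to 57576 against 43625 to 44641). At 7-d it overlapped the controls (44619 to 51043 against 40677 to 45934). Of these 5 markers, 0 were called higher and 1 lower at each of the 3 times. The 5 bile duct or epithelial markers summed to 395 to 492 normalized RPM in the low-dose rats of 7-d against 1007 to 1086 in the controls, without overlap, and 2 of the 5 were called lower. At 14-d their sums were 451 to 747 against 708 to 1014, and 2 were called higher and 1 lower. Of the 4 red blood cell markers, 0 were called lower at the low dose of 3-d, 2 at 7-d and 1 at 14-d, and 0 were called higher. The part of these cell types in the level of the miR-19 strands was not tested. What the numbers stand for is not given in the sources used here, and the low dose of those time points and a late running number cannot be told apart.

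**Figure D2:**
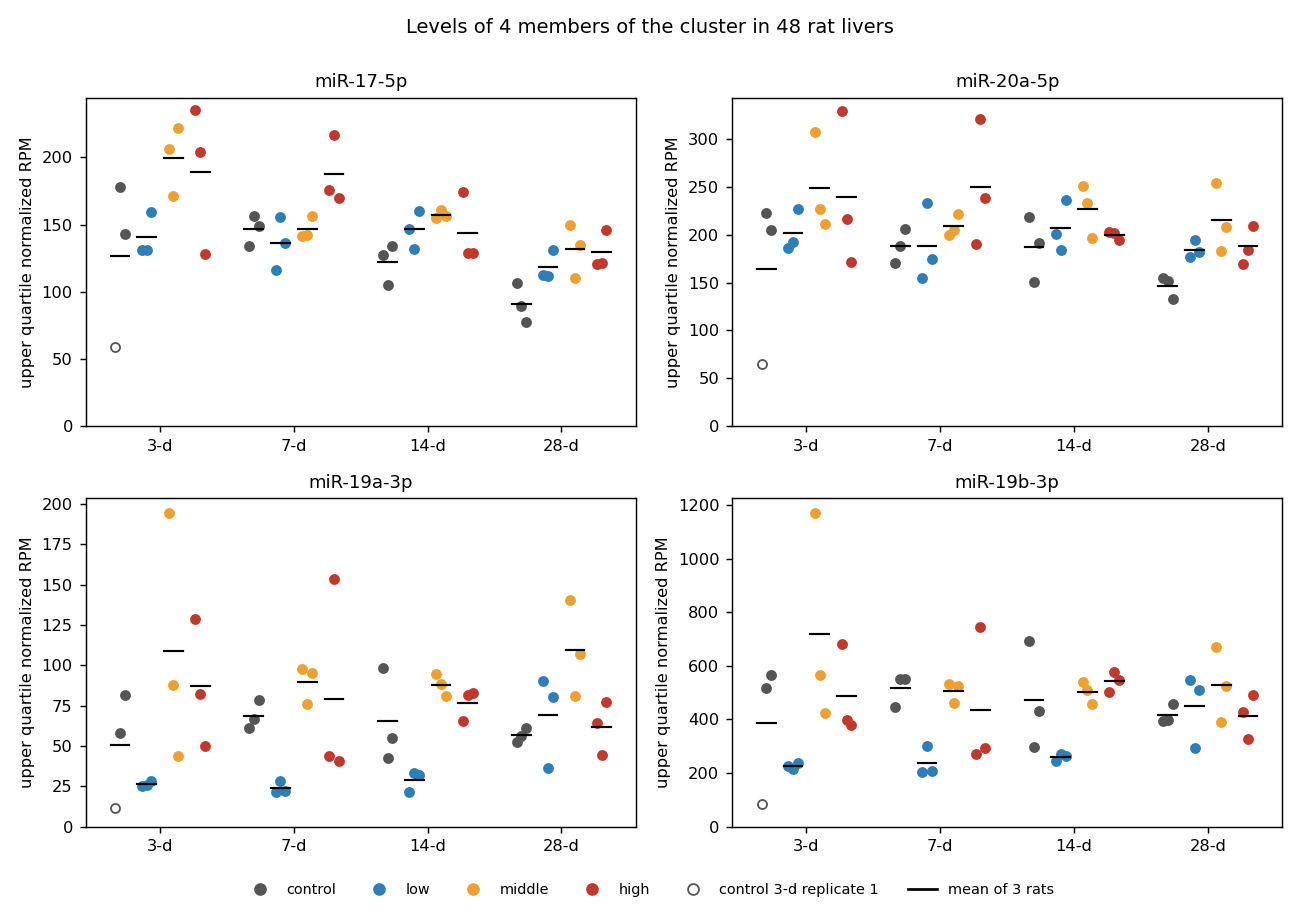
Normalized RPM of miR-17-5p, miR-20a-5p, miR-19a-3p and miR-19b-3p (y axis) in each rat by time point (x axis) and dose (colour), with black lines at the group means of 3 rats. The low-dose points of the first 3 time points lie at 21.2 to 32.9 for miR-19a-3p and at 202 to 301 for miR-19b-3p, while those of miR-17-5p (116 to 160) and miR-20a-5p (155 to 236) overlap the 11 deeper controls (77.7 to 178 and 133 to 223).

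The other products of the transcript differed in their low-dose values. miR-17-5p, which targets the cell cycle inhibitor p21, had log2 fold changes at the low dose of 0.13, -0.11, 0.26 and 0.38 from the first to the last time point, with SEs of 0.13 to 0.42. Without control 3-d replicate 1 the 3-d value of miR-17-5p was -0.19 (SE 0.16). Its 7-d values were 134 to 157 normalized RPM in the controls and 116 to 156 at the low dose, which overlap. miR-19a-5p, the partner strand from the same hairpin as miR-19a-3p, had log2 fold changes of 0.53, 0.47 and -0.05 at the low dose of the first 3 time points. Its 3-d value was 0.42 without control 3-d replicate 1. The read ratios within each library, which do not depend on normalization, were compared between low-dose and control rats with an exact permutation test within time points. The log2 ratio of miR-19a-3p to miR-17-5p was lower by a mean of -0.97 at the low dose (exact permutation, adjusted p = 0.00225 over 24 ratios and doses). That of miR-19b-3p to miR-17-5p was lower by -0.76 (exact permutation, adjusted p = 0.00225). That of miR-19a-3p to its own partner strand miR-19a-5p was lower by -1.08 (exact permutation, adjusted p = 0.0075). miR-92a-3p was also lower relative to miR-17-5p, by -0.74 (exact permutation, adjusted p = 0.00225). Without control 3-d replicate 1 the 4 differences were -1.05, -0.87, -1.23 and -0.44, and all 4 passed. miR-92a-3p itself had a log2 fold change of -0.51 (SE 0.18, adjusted p = 0.0540) at the low dose of 7-d, below the threshold on size, although the groups did not overlap. This comparison by dose was added after the data were seen. At the middle dose the 3 ratios of the miR-19 strands differed by 0.33, -0.02 and 0.04, and at the high dose by -0.10, -0.31 and -0.49, and none of these passed. The ratio of miR-92a-3p to miR-17-5p was not lower at the low dose alone. At the high dose it was lower by -0.79 (exact permutation, adjusted p = 0.0009). Without control 3-d replicate 1 this was -0.50 (exact permutation, adjusted p = 0.0009). At the middle dose it was lower by -0.47, which did not pass.

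**Figure D3:**
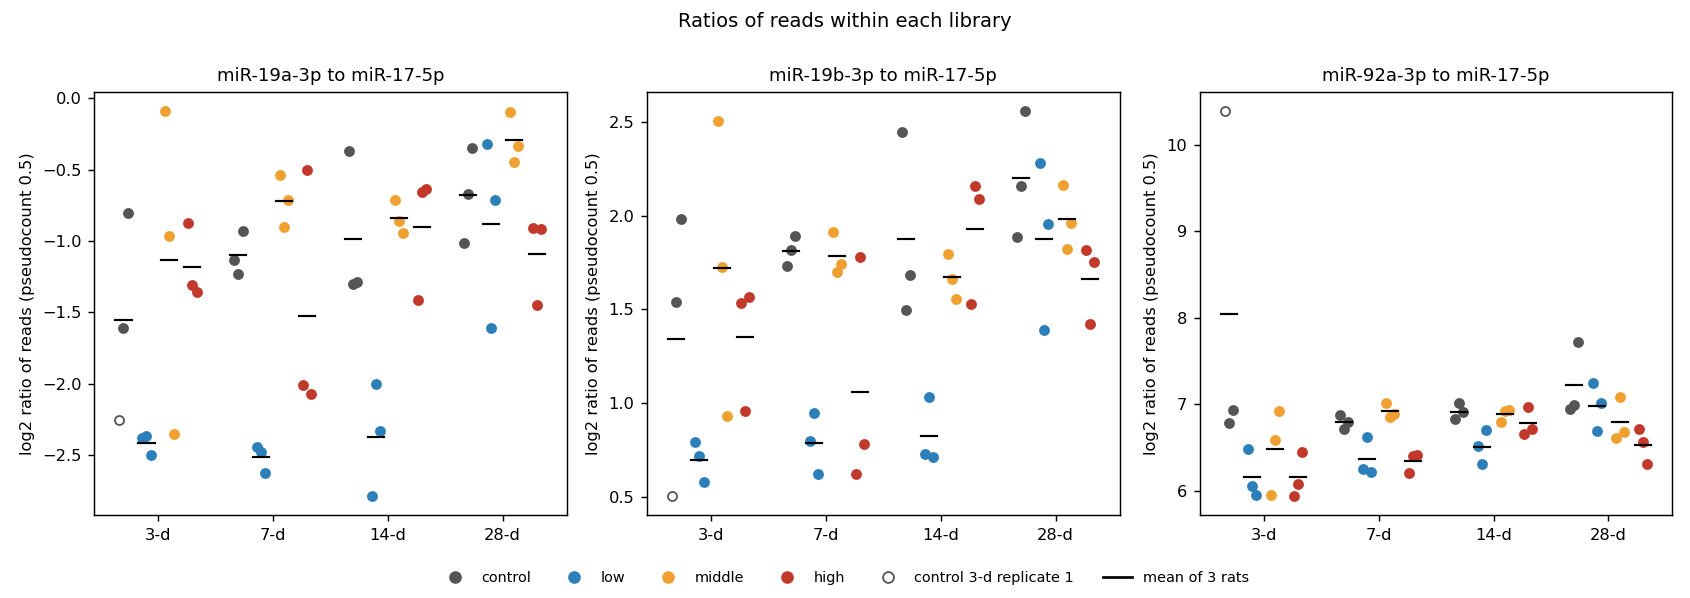
Log2 ratio of the reads of miR-19a-3p, miR-19b-3p and miR-92a-3p to those of miR-17-5p (y axis, pseudocount 0.5) in each rat by time point and dose, with black lines at group means. The low-dose libraries of the first 3 time points lie at -2.79 to -2.003 for miR-19a-3p, below the controls but for the open symbol of control 3-d replicate 1 at -2.26, and that library lies at 10.4 for miR-92a-3p.

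The base composition of the members was compared with that of the other miRNAs. miR-19a-3p has 34.8% and miR-19b-3p 39.1% of G and C bases. RefSeq sequences were matched for 270 of the 301 miRNAs (89.7%), and the 56 miRNAs outside the cluster with 39.1% or less had median log2 fold changes at the low dose of 0.60 at 3-d, 0.25 at 7-d and 0.07 at 14-d. miR-20a-5p, with the same 39.1% as miR-19b-3p, had 0.28, 0.00 and 0.15. Without control 3-d replicate 1 its 3-d value was -0.08. Among the 56 miRNAs, 13 were called higher and 1 lower in the low-dose rats of 3-d. For 7-d these counts were 16 and 5, and for 14-d 13 and 5. Over the 270 miRNAs, Spearman's rho of G and C share with log2 fold change was -0.52, -0.11 and 0.02 from 3-d to 14-d. The other 3-d values given here include control 3-d replicate 1. The part of base composition in the level of the miR-19 strands was not tested.

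The dose groups were also compared directly, in a fit of all 48 libraries. The high-dose minus low-dose difference of miR-19a-3p was 1.73 on the log2 scale at 3-d (SE 0.46, adjusted p = 0.0112), 1.74 at 7-d (SE 0.46, adjusted p = 0.0225) and 1.42 at 14-d (SE 0.46, adjusted p = 0.0270), and -0.16 (SE 0.44) at 28-d. At 7-d the high-dose rats were at 43.5, 153 and 40.4 normalized RPM, and without the rat at 153, high 7-d replicate 26, the difference was 0.82 and did not pass. It also did not pass without any 1 of the 3 low-dose rats of 7-d (1.67 to 1.87), at 3-d without high replicate 22 (1.34) or low replicate 43 (1.70) or 44 (1.71), and at 14-d without high replicate 8 (1.37) or 9 (1.36) or low replicate 40 (1.24) or 42 (1.4999). miR-19b-3p differed by 1.10, 0.88 and 1.07 at the same times, with adjusted p of 0.0671, 0.162 and 0.0552. With control 3-d replicate 1 left out of the fit it passed at 3-d (adjusted p = 0.0155) and at 14-d (adjusted p = 0.0134).

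Beside miR-19a-3p, the high-dose minus low-dose difference passed for miR-18a-5p at 3-d (1.08, SE 0.35, adjusted p = 0.0324) and for miR-92a-1-5p at 7-d (0.90, SE 0.27, adjusted p = 0.0319). Of the 9 members, 2 were thus higher at 3-d, 2 at 7-d and 1 at 14-d, against 8.97%, 5.98% and 2.99% of all miRNAs. At 28-d the fit of all 48 libraries gave 0 of the 9 (2.66% of all miRNAs were higher), with an unadjusted p below 0.05 for miR-17-1-3p and miR-92a-1-5p, and miR-92a-1-5p passed without control 3-d replicate 1 (0.73, adjusted p = 0.0462). The difference of miR-18a-5p was 0.51 without high 3-d replicate 22 and was also lost without high replicate 23 (1.14) or any 1 low-dose rat of 3-d (0.98 to 1.16). That of miR-92a-1-5p was lost without high 7-d replicate 25 (0.73) or 26 (1.01) or low 7-d replicate 46 (0.80) or 48 (0.79).

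miR-18a-5p has a seed of its own in the cluster and targets the estrogen receptor ESR1 in liver cancer cells. It rose most at the high dose of 3-d, where the rats were at 56.9, 31.9 and 14.2 normalized RPM and the controls at 8.46, 11.03 and 13.02. The groups did not overlap, but a single rat, replicate 22, was far above the others. The log2 fold change was 1.60 (SE 0.56, unadjusted p = 0.0201, adjusted p = 0.400), against 6.98% of miRNAs called higher, and it was 1.03 and not called without high 3-d replicate 22 and 1.58 and not called without control 3-d replicate 2. Without control 3-d replicate 1 it was 1.51 and called, against 7.31% of miRNAs called higher in that fit. The 7 leukocyte markers were higher in the same rats, with sums of 5510 to 6746 normalized RPM against 3228 to 5210 in the controls, and 3 of the 7 were called higher and 0 lower. Their part in this result was not tested. The middle-dose rats of 3-d were at 38.5, 14.1 and 15.6, and their log2 fold change of 1.00 did not pass.

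At 28-d the controls of miR-18a-5p were at 9.27, 8.65 and 8.93 normalized RPM, the low-dose rats at 9.63, 9.44 and 10.1, the middle-dose rats at 17.02, 13.5 and 15.5 and the high-dose rats at 10.8, 16.1 and 18.4. The middle and high dose did not overlap the controls. The log2 fold changes were 0.12 (SE 0.19) at the low dose, 0.78 (SE 0.18, adjusted p = 0.00941) at the middle dose and 0.75 (SE 0.23, adjusted p = 0.0801) at the high dose. Against the 12 pooled controls they were 0.48 at the middle and 0.45 at the high dose, and neither was called.

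The middle dose of 28-d held the largest number of calls, with 4 members called higher (20.9% of all miRNAs were) and 3 of them at an adjusted p below 0.05 (30.2% were, in either direction). Besides miR-18a-5p these were miR-17-1-3p, miR-19a-3p and miR-19a-5p. miR-19a-3p was at 140, 80.8 and 107 normalized RPM against 52.6, 56.2 and 61.2 in the controls, a log2 fold change of 0.95 (SE 0.21, adjusted p = 0.00737), opposite in sign to its change at the low dose of 7-d and 14-d. miR-17-1-3p, the partner strand of miR-17-5p, was at 10.6, 8.00 and 10.7 against 6.65, 4.98 and 5.81, a log2 fold change of 0.75 (SE 0.22, adjusted p = 0.0232), which was 0.40 and not called against the pooled controls. miR-19a-5p rose by 0.84 (SE 0.32, adjusted p = 0.0604), with 5.91 to 8.36 against 2.54 to 6.40, which overlap, and its call was lost without control 28-d replicate 16 (0.72), control 28-d replicate 17 (0.59) or middle 28-d replicate 39 (0.70), or in the fit of all 48 libraries (0.82). In the same condition 3 of the 4 red blood cell markers were called lower (sums of 1451 to 3269 normalized RPM against 2954 to 5297) and 2 of the 4 hepatocyte markers were called lower (240639 to 277714 against 255143 to 285397), and their part in these calls was not tested.

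At the high dose of 28-d, 3 members were called higher (13% of all miRNAs were) and 0 passed the adjustment. miR-17-1-3p was at 9.13, 8.55 and 12.3 normalized RPM and its log2 fold change was 0.78 (SE 0.23, adjusted p = 0.0774), or 0.43 and not called against the pooled controls. miR-92a-1-5p, the partner strand of miR-92a-3p, was at 46.8, 46.8 and 84.1 against 37.7, 29.6 and 30.7 in the controls, a log2 fold change of 0.86 (SE 0.25, adjusted p = 0.0774), which became 0.52 without high 28-d replicate 21 and 0.40 against the pooled controls, and was called in neither case.

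At the middle and high dose of 7-d the 3 calls were of partner strands. miR-19a-5p was at 2.40, 2.13 and 2.21 normalized RPM in the controls, at 5.75, 4.05 and 6.21 at the middle dose and at 4.28, 8.59 and 6.30 at the high dose. The treated groups did not overlap the controls. The log2 fold changes were 1.25 (SE 0.23, adjusted p = 0.00479) and 1.51 (SE 0.33, adjusted p = 0.0270), and 12% and 17.9% of all miRNAs were called higher in these conditions, while 14.6% and 13% were called in either direction with an adjusted p below 0.05. These levels lie near the filter of 5 RPM, and miR-19a-5p had at most 142 reads in any library. Because miR-19a-5p passed that filter mainly through treated rats, these calls are not independent of it. miR-17-1-3p was at 15.2, 14.8 and 12.8 at the high dose of 7-d against 7.88, 9.24 and 9.58, a log2 fold change of 0.68 (SE 0.20, adjusted p = 0.0668), and it was not called without control 7-d replicate 4 (0.60), with DESeq2 size factors (0.56), without a filter (0.50) or in DESeq2's Wald test (0.56). At 14-d no member was called at the middle dose, where 17.3% of all miRNAs were, or at the high dose, where 9.30% were, while miR-92a-3p at the middle dose had an adjusted p of 0.0330 with a log2 fold change of 0.34, below the threshold on size.

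miR-92a-3p is known from vessels and blood cells as well as from liver. How far this member differed from the others depended on control 3-d replicate 1. Its 3-d controls were at 81384, 19575 and 17530 normalized RPM, and the first of these is the library that stands apart. The low-dose rats were at 11774, 8766 and 9833, the middle-dose rats at 12734, 16404 and 26940, and the high-dose rats at 14473, 13837 and 11144. With all controls, the log2 fold change was -1.96 (SE 0.65, adjusted p = 0.219) at the low dose, where 6.64% of all miRNAs were called lower, and -1.59 (SE 0.62, adjusted p = 0.400) at the high dose, where 4.32% were. Without control 3-d replicate 1 it was -0.87 (SE 0.14, adjusted p = 0.0111) at the low dose, which was called, 0.01 at the middle dose, and -0.50 (SE 0.19, adjusted p = 0.391) at the high dose, which was not. The call at the low dose was also lost without low 3-d replicate 44 (-1.87) or replicate 45 (-1.94) or with pooled controls (-1.05), and that at the high dose without any 1 of the 3 treated rats (-1.66 to -1.48) or with pooled controls (-0.68).

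A sum of red blood cell miRNAs was also highest in that library. The sum of the 4 markers miR-451-5p, miR-144-3p, miR-144-5p and miR-486 was 81096 normalized RPM in control 3-d replicate 1 and 4426 and 6781 in the other 3-d controls. The sum mostly reflects miR-486, with a median of 3714 RPM against 237, 54.1 and 40.8 for the others in that order. Against all 3 controls of 3-d, 1 of the 4 was called lower at the middle dose (median log2 fold change 0.24). At the high dose of 3-d, 1 was called higher and 1 lower (median 0.23), so the sum does not stand for each marker. The sum was also lower at the middle dose of 7-d, at 1664 to 1928 against 3815 to 6241 in the controls, where 3 of the 4 markers were called lower, whereas miR-92a-3p was at 16460 to 18616 against 15724 to 16522 there. At the high dose of 7-d 3 of the 4 markers were called lower (786 to 3416), where miR-92a-3p had a log2 fold change of -0.09. At the middle dose of 14-d all 4 were (2074 to 3138 against 4042 to 5331), where miR-92a-3p had the value of 0.34 given above. Of the 4 markers, 2 were called lower at the low dose of 7-d, although the sums overlapped the controls (3783 to 4523). There miR-92a-3p was also lower, with the value of -0.51 given above and without overlap. At 28-d 2 were called lower at the low and 3 at the middle dose, where miR-92a-3p was at 0.15 and 0.08. The part of red blood cells in the levels of miR-92a-3p was not tested.

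**Figure D4:**
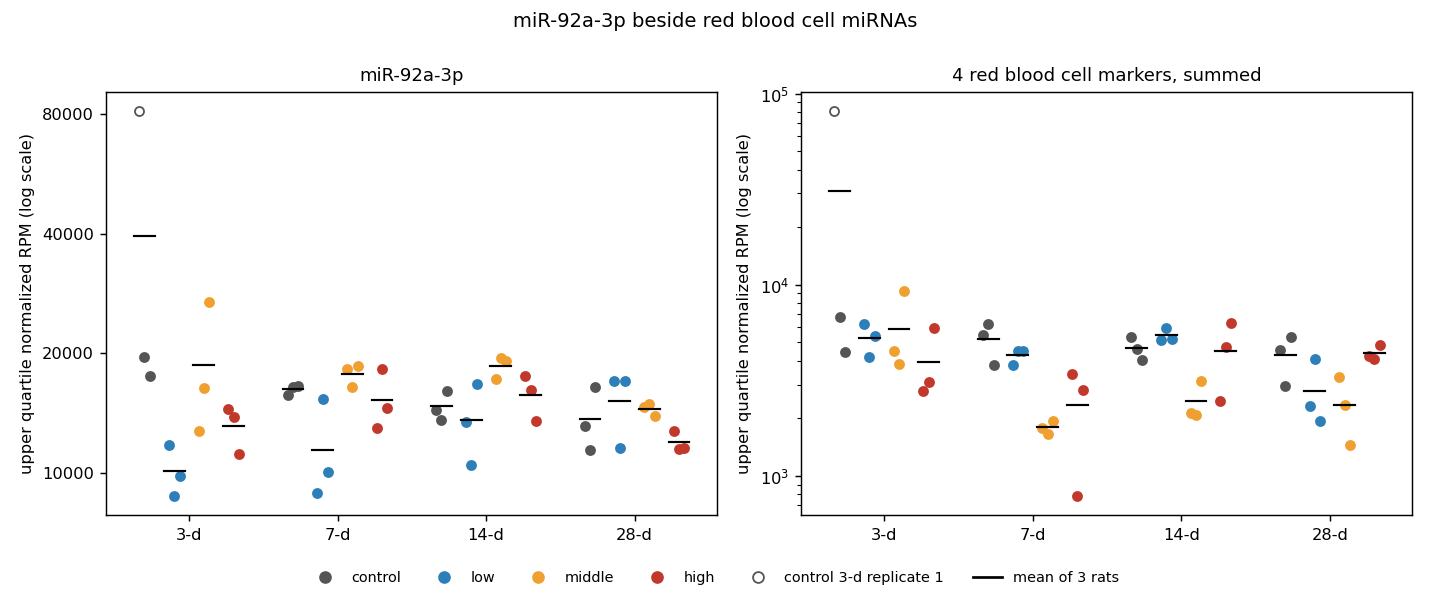
Normalized RPM on a log scale of miR-92a-3p (left) and of the sum of 4 red blood cell miRNAs (right) in each rat by time point and dose, with black lines at group means. Control 3-d replicate 1, the open symbol, is the highest point of both panels, at 81384 and 81096, and at the middle dose of 7-d the red blood cell sum is at 1664 to 1928 while miR-92a-3p is among or above the controls.

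Averaged over the 12 conditions in the fit of all 48 libraries, 5 members were higher and 1 was lower at an adjusted p below 0.05, while 25.2% of the 301 miRNAs were higher and 15.9% lower. The median log2 effect was 0.30 for the 9 members and 0.06 for all 301. miR-17-1-3p was higher by 0.43 (SE 0.09, adjusted p = 0.000201), miR-17-5p by 0.31 (SE 0.09, adjusted p = 0.00664), miR-20a-5p by 0.30 (SE 0.10, adjusted p = 0.0187), miR-18a-5p by 0.48 (SE 0.15, adjusted p = 0.0105) and miR-19a-5p by 0.60 (SE 0.19, adjusted p = 0.0101). The value of miR-19a-5p is not independent of the filter, which it passed mainly through treated rats. The effects of miR-17-1-3p (1.35-fold), miR-18a-5p (1.39-fold), miR-17-5p and miR-20a-5p are below 1.5-fold, and that of miR-19a-5p is 1.52-fold. miR-17-5p and miR-20a-5p had a value above 0 in 10 and 11 of the 12 conditions. Without control 3-d replicate 1 their values at the low dose of 3-d were -0.19 and -0.08. Their averages were then 0.24 and 0.22, and both still passed. miR-92a-3p was lower by -0.39 (SE 0.13, adjusted p = 0.0116), which became -0.12 (adjusted p = 0.244) without control 3-d replicate 1. miR-92a-1-5p was at 0.21 (SE 0.11), miR-19a-3p at 0.03 (SE 0.18) and miR-19b-3p at -0.10 (SE 0.16), and these did not pass. miR-92a-1-5p passed without control 3-d replicate 3 (0.28, adjusted p = 0.0471). For miR-19a-3p that average joins doses of opposite sign, of which the low and the middle dose passed. For miR-19b-3p only the lower value of the low dose passed. Its values were 0.31 at the middle and 0.06 at the high dose, the latter -0.05 without control 3-d replicate 1.

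By dose, averaged over the 4 time points, 1 member was higher and 3 were lower at the low dose, against 28.6% and 21.3% of all miRNAs. The low-dose libraries of the first 3 time points bear the running numbers 40 to 48, so that dose and running number cannot be told apart there. miR-19a-3p was lower by -0.88 (SE 0.23, adjusted p = 0.00145), miR-19b-3p by -0.67 (SE 0.20, adjusted p = 0.00511) and miR-92a-3p by -0.61 (SE 0.16, adjusted p = 0.00178), and miR-17-1-3p was higher by 0.34 (SE 0.10, adjusted p = 0.00626). Without control 3-d replicate 1 the 3 lower values were -0.96, -0.78 and -0.34, and all 3 passed. At the middle dose 7 members were higher and 0 lower, against 23.3% and 13.3%, with values between 0.37 for miR-17-5p and 0.69 for miR-19a-5p. At the high dose 6 members were higher and 1 was lower, against 21.6% and 6.64%. The largest values at the high dose were those of miR-19a-5p at 0.83 (SE 0.22, adjusted p = 0.00454), miR-18a-5p at 0.80 (SE 0.18, adjusted p = 0.00101) and miR-17-1-3p at 0.58 (SE 0.10, adjusted p = 0.000137). Those of miR-19a-5p at the middle and high dose are not independent of the filter, which it passed mainly through treated rats. The 1 lower member was miR-92a-3p, at -0.44, and it was at -0.17 and did not pass without control 3-d replicate 1. With each of the 48 libraries left out in turn, the calls of miR-17-1-3p and miR-17-5p, that of miR-20a-5p at the middle dose, those of miR-18a-5p and miR-19a-5p at the high dose and the 3 lower calls of the low dose were kept. At the middle dose miR-19a-3p was lost without middle 3-d replicate 10 (0.50), miR-19a-5p without middle 3-d replicate 11 (0.55), miR-92a-1-5p without middle 3-d replicate 12 (0.30), middle 14-d replicate 31 (0.34) or control 14-d replicate 13 (0.34), and miR-18a-5p without middle 3-d replicate 10 (0.34) or control 7-d replicate 4 (0.47), control 7-d replicate 5 (0.46) or control 14-d replicate 14 (0.43). At the high dose miR-20a-5p kept its call in 37, miR-92a-1-5p in 39 and miR-92a-3p in 40 of the 48 fits. Without a filter on low values, the calls of miR-17-1-3p at the low (0.25) and middle dose (0.28), of miR-17-5p at the middle (0.27) and high dose (0.25), of miR-20a-5p (0.28 and 0.18) and miR-92a-1-5p (0.28 and 0.22) at both of these, and of miR-18a-5p at the middle dose (0.39) were lost. Those of miR-20a-5p and miR-92a-1-5p at the high dose were also lost under TMM (0.26 and 0.31) and DESeq2 size factors (0.24 and 0.29), that of miR-20a-5p with summed precursor rows (0.32), and that of miR-92a-3p with library size alone (-0.40). The 3 doses were compared with common controls, and these averages are therefore not independent of each other.

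**Figure D5:**
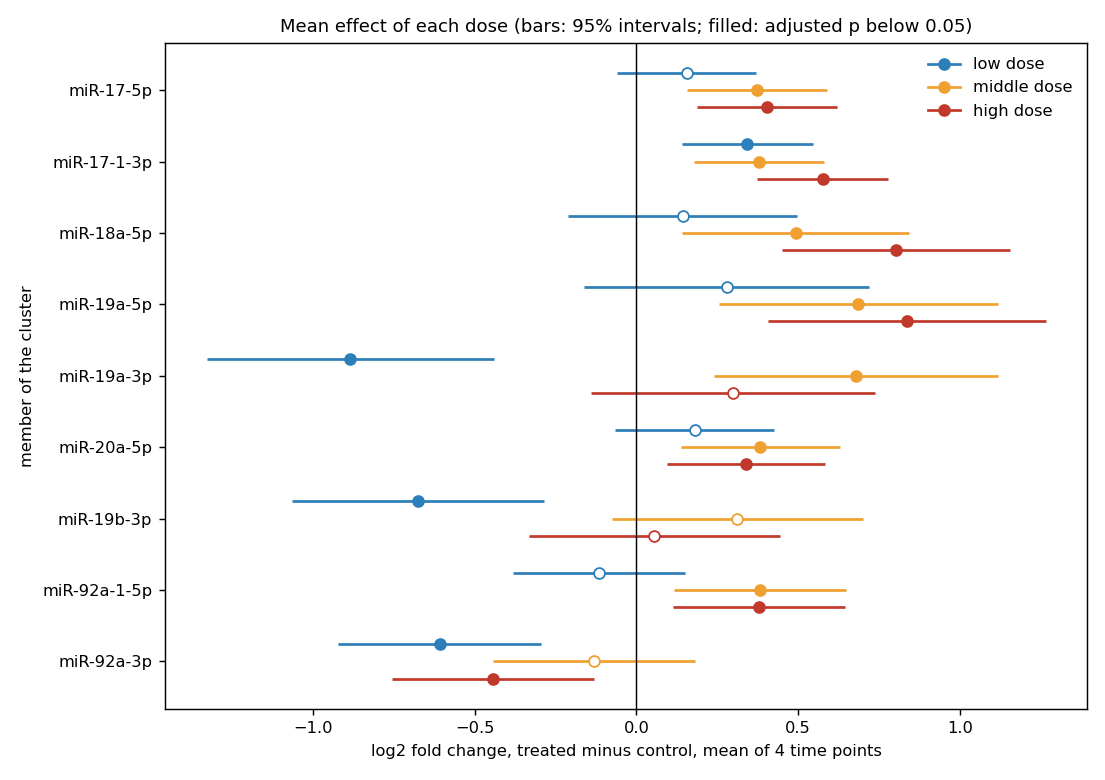
Mean log2 fold change over the 4 time points (x axis, treated minus control) of each member at the low, middle and high dose, with 95% intervals as bars and filled symbols where the adjusted p was below 0.05. miR-19a-3p lies at -0.88 at the low dose and at 0.68 at the middle dose, whereas miR-17-1-3p is above 0 at each dose, from 0.34 to 0.58.

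Among the ratios of reads within libraries, that of miR-92a-3p to miR-17-5p differed between the 36 treated and the 12 control rats. Its log2 value was 7.24 ± 1.03 (SD, n = 12) in the controls and 6.58 ± 0.35 (SD, n = 36) in the treated rats. The difference within time points was -0.67 (permutation test, adjusted p = 0.00096 over 8 ratios). Control 3-d replicate 1 was at 10.4, the other controls at 6.71 to 7.73 and the treated rats at 5.94 to 7.24. Without that library the difference was -0.37 and still passed (permutation test, adjusted p = 0.00520). The ratio of miR-92a-3p to its partner miR-92a-1-5p differed by -0.59 (permutation test, adjusted p = 0.0200), and by -0.28 (permutation test, adjusted p = 0.0632) without that library. It also did not pass without control 14-d replicate 13 (-0.54) or control 28-d replicate 18 (-0.54). The ratio of miR-20a-5p to miR-17-5p, 2 members with the same seed, was 0.49 ± 0.21 (SD, n = 12) in controls and 0.49 ± 0.18 (SD, n = 36) in treated rats.

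The controls themselves were compared over time, because their level enters each effect. miR-92a-3p was the only member that differed among the 4 control groups (edgeR, adjusted p = 0.000386), as did 33.6% of the 301 miRNAs, and without control 3-d replicate 1 it did not (adjusted p = 0.461). miR-17-5p was at 147 ± 11.3 (SD, n = 3) normalized RPM in the 7-d controls, 122 ± 15.0 (SD, n = 3) in the 14-d controls and 91.2 ± 14.4 (SD, n = 3) in the 28-d controls. Its test over the 4 groups gave an adjusted p of 0.0718, and of 0.00750 without control 3-d replicate 1. The 28-d effects of miR-17-5p, which were 0.38, 0.53 and 0.50 at the 3 doses, are thus relative to the lowest control level. In edgeR's test of a change in effect between 7-d and 28-d, 0 members passed at the low dose (0% of all miRNAs did), the middle dose (0%) and the high dose (0.332%), and 4 tests of members had an unadjusted p below 0.05. Without low 28-d replicate 29, 1 member passed at the low dose.

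Of the 19 related miRNAs, which are the products of the 2 copies of the cluster, the remaining strands of the cluster itself and miRNAs with the seed of miR-92a-3p, 9 were tested. Averaged over the 12 conditions 3 of the 9 were higher and 1 was lower, against 25.2% and 15.9% of all 301 miRNAs. Neither count is therefore a result about the related miRNAs. miR-93-5p (0.33, SE 0.08, adjusted p = 0.000646) and miR-106b-5p (0.25, SE 0.08, adjusted p = 0.0112) share the seed of miR-17-5p and were higher, as it was. miR-25-3p shares the seed of miR-92a-3p and was higher by 0.38 (SE 0.07, adjusted p = 4.11e-05), whereas miR-92a-3p was not. At the low dose miR-93-3p, the partner strand of miR-93-5p, was lower by -1.18 (SE 0.17, adjusted p = 9.83e-07), beside miR-19a-3p and miR-19b-3p. The sequences of miR-25-3p and miR-93-5p are printed to show the shared seeds.

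miR-25-3p: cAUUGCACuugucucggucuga
miR-93-5p: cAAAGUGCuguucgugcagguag

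Outside the cluster, the miRNAs most like the mean of its 6 guide strands over the 16 group means were miR-138-5p (Pearson r = 0.77), miR-93-3p (0.74), miR-345-3p (0.74), miR-363-3p (0.74) and miR-361-5p (0.71). This is a description over 16 groups that share their libraries and normalization, and without control 3-d replicate 1 the highest r was that of miR-484 (0.87). Of the guide strands themselves, miR-19a-3p (0.89) and miR-19b-3p (0.86) had the highest r with that mean, and miR-92a-3p was at 0.35 with and 0.73 without control 3-d replicate 1. Each guide strand is part of the mean it is compared with, so a high r is partly built in, most for strands that vary most.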

How the data were processed

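Liver small RNA of 48 rats was sequenced. The authors trimmed adaptors, checked reads with FastQC, mapped them to rn5, counted miRBase sequences with miRDeep2 and deposited raw read counts per mature miRNA and precursor, not normalized, filtered or pooled. Groups were taken from the labels. The members and lists were chosen with earlier results of these data known.

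Of 664 miRNAs with a read, 301 had at least 5 RPM in at least 3 libraries and were tested with edgeR 4.0.16 (R 4.3.3; quasi-likelihood F-test after upper quartile normalization), in 12 fits of 6 libraries or, for averages and differences between doses, times or controls, in 1 fit of 48 libraries and 16 groups. P-values were adjusted over the 301 (Benjamini-Hochberg), SEs were computed from the fold change and F, and 95% intervals by normal approximation. With 3 rats against 3, an exact permutation test cannot go below p = 0.1. Ratios used a pseudocount of 0.5 and 100000 resamples within time points, or all permutations for 1 dose.

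On simulated data for high dose 7-d, 31 of 31 miRNAs changed 4-fold, 47 of 51 changed 2-fold and 15 of 219 unchanged ones were called. For the mean of 12 conditions, 31 of 31 and 51 of 51 changed miRNAs passed, and 0 of 301 where none was changed. Named were all members, up to 4 related examples and the 5 most alike miRNAs. Marker lists covered leukocytes, red blood cells, hepatocytes, stellate or smooth muscle, bile duct or epithelium, endothelium and other tissues. The alternatives were other normalizations, filters, DESeq2 1.42.0, pooled controls, 1 fit of all libraries, other pseudocounts and read minimums, summed precursor rows and each library left out. Intervals and limits of detection cover counting or sampling error only. P-values measure the spread between rats of a group.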

Additional observations from a re-analysis of the deposited data

Results flagged for a closer look

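Differences between the high and the low dose at the same time point passed edgeR's test of the difference itself (adjusted p below 0.05) for 5 values. miR-19a-3p was higher at the high dose by 1.73 at 3-d, 1.74 at 7-d and 1.42 at 14-d on the log2 scale, miR-18a-5p by 1.08 at 3-d and miR-92a-1-5p by 0.90 at 7-d. Each of the 5 was lost when 1 of several single libraries was left out, and the lowest values were 0.82 for miR-19a-3p at 7-d without high 7-d replicate 26 and 0.51 for miR-18a-5p at 3-d without high 3-d replicate 22. The low-dose libraries of these time points are those with the running numbers 40 to 48, so that dose and running number cannot be told apart.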

How the results depend on the processing

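The number of higher calls, 11, was 5 at an adjusted threshold, 20 when only library size was corrected and 10 to 14 with 1 library left out, and that of lower calls was 5 to 8. The mean effect of miR-19a-3p, 0.03, was -0.0088 with TMM, -0.024 with DESeq2 size factors, -0.088 without a filter, -0.012 without any 3-d library (a setting chosen after the data were seen) and -0.048 to 0.14 with 1 library left out. Without a filter, the means of miR-17-5p (0.19), miR-18a-5p (0.36) and miR-20a-5p (0.18) did not pass, and without 3-d libraries those of miR-18a-5p (0.30) and miR-92a-3p (-0.011) did not. With 1 library left out the mean was 0.15 to 0.28 for miR-92a-1-5p and -0.48 to -0.12 for miR-92a-3p.

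High minus low, 1 member passed without a filter at 3-d and 1 at 7-d, and 2 passed at 14-d under TMM, DESeq2 size factors, library size alone, no filter and summed precursor rows. Leaving out 1 library gave 0 to 5 members at 3-d, 0 to 2 at 7-d, 0 to 2 at 14-d and 0 to 1 at 28-d, 0 to 1 for the change from 7-d to 28-d at the low dose, and 1 to 2 for the controls over time, where TMM gave 3. The 5 members were those without high 3-d replicate 24, and the 2 in the controls those without control 3-d replicate 2.

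The ratio of miR-19a-3p to miR-19a-5p passed with a pseudocount of 0.1 (-0.70) and at the low dose (-1.08), was 0.041 at the middle dose and -0.66 to -0.40 with 1 library left out, passing without middle 3-d replicate 10 (-0.59). That of miR-92a-3p to miR-92a-1-5p did not pass with at least 10 reads of both (-0.28), at the low (-0.48) or the middle dose (-0.49), and was -0.77 to -0.28 with 1 library left out. Relative to miR-17-5p, miR-19a-3p was at -0.97 (low) and 0.33 (middle), miR-19b-3p at -0.76 (low) and -0.47 to -0.28 with 1 library left out (passing without control 3-d replicate 1 or middle 3-d replicate 10), miR-18a-5p at -0.043 (low), miR-20a-5p at 0.034 (low), 0.017 (middle) and -0.026 to 0.022 with 1 library left out, and miR-92a-3p at -0.47 (middle, not passing). The ratio of miR-17-5p to miR-17-1-3p was 0.041 at the middle dose. Of the values of single members under the other settings, 249 kept their direction and side of the threshold and 30 kept only their direction, and with 1 library left out these numbers were 1135 and 71. The causes of these changes were not tested. No paired analysis was possible because the groups compared share no replicate number. The few reads of miR-19a-5p and the shallow control 3-d replicate 1 limit the precision of every value that uses them.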

Other observations

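The lists of other cell types were counted by the same thresholds in each of the 12 conditions. Of the 5 markers of stellate or smooth muscle cells, at most 2 were called higher, at the high dose of 7-d and the middle dose of 28-d, and at most 3 lower, at the high dose of 14-d. Of the 5 bile duct or epithelial markers, at most 2 were called higher and at most 2 lower in a condition. Of the 2 endothelial markers 0 were called in edgeR's test in any condition, with median log2 fold changes of -0.31 to 0.51. Of the 4 markers of other tissues 1, miR-9a-5p, was abundant enough to be tested, and it was called higher at the low and middle dose of 14-d and at the high dose of 7-d and 14-d.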
